A study of Mus musculus with 36 samples.

Results

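Glycogen synthesis and breakdown was followed through 9 genes, chosen by name in the deposited gene count table and covering the priming, donor supply, elongation, branching, phosphatase targeting and phosphorolysis of liver glycogen. They are 9 of the 54532 gene rows, and all 9 were among the 17994 genes that summed to 100 or more counts and were tested. RNA was sequenced from livers of 36 male mice aged 2 to 3 months, of the C57Bl/6NCrl background and kept on chow with free access to food in 12 h of light and 12 h of dark. The 18 controls, called WT in the labels, were heterozygous (THRB+/-), and the 18 knockouts were homozygous (THRB-/-). Both genotypes therefore carried at least 1 mutated allele of the thyroid hormone receptor beta gene Thrb. The mutation was inherited, affects both THRB isoforms and impairs DNA binding in every tissue, so that an effect arising in liver cannot be told apart from one arising elsewhere. At each of 6 Zeitgeber times (ZT, hours after lights on: ZT2, ZT6, ZT10, ZT14, ZT18 and ZT22), 3 mice per genotype were sampled, each mouse once.

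Glycogen is the glucose store of hepatocytes. It is built after meals from UDP-glucose, through a primed, elongated and branched chain, and is broken down between meals to keep blood glucose steady. Insulin and glucagon set the balance mainly through phosphorylation: protein phosphatase 1, brought to the particle by targeting subunits, activates the synthase and inactivates the phosphorylase, whereas phosphorylase kinase activates the phosphorylase. In nocturnal mice most feeding falls in the dark phase.

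The libraries held 29063273 to 42530551 counts, and TMM factors lay between 0.941 and 1.06. Thrb itself was counted in all libraries, at 24.3 to 38.5 CPM (counts scaled to library size with TMM factors) in controls and 26.2 to 37.7 CPM in knockouts, so gene counts gave no check of the genotype labels. By 13 clock genes, 35 of 36 libraries were nearest to the mean of their own labelled time. The other, a control of ZT18 (mouse c), was nearest to ZT22. Summed hepatocyte markers were at 64686 to 95513 CPM. No gene of this list or of 9 lists for other cell types was called for genotype by edgeR, beside 0.95% of all tested genes. Only 2 of 6 skeletal muscle markers, and 1 of 6 each for white adipocyte and exocrine pancreas, were tested. In the same test 2169 of all 17994 tested genes had an unadjusted p under 0.05. It was reached by 2 of 6 hepatocyte, 2 of 5 cholangiocyte and 1 of 5 red blood cell markers. The 1 tested exocrine pancreas marker reached it too, and the other lists had 0. Equal cell composition was therefore not shown. Single libraries were high for Kupffer cell markers (a ZT18 control, mouse b, 449 CPM against a control median of 169) and for red blood cell markers (a ZT10 control, mouse a, 983 CPM against 330). In whole liver, fewer cells of a type and less RNA per cell cannot be told apart.

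Per length of gene, in RPKM (CPM per kilobase of the gene's listed length), the 9 genes spanned a wide range of mean levels over the 18 controls. Ugp2 was highest at 109.6 ± 35.6 RPKM (SD, n = 18), followed by Gys2 at 82.8 ± 35.8 and Pygl at 78.8 ± 11.7. Next came the targeting subunits Ppp1r3b at 59.2 ± 28.8 and Ppp1r3c at 32.2 ± 18.7, and then Gbe1 at 21.1 ± 3.98. Phka2 at 3.11 ± 0.902 and Gyg at 2.25 ± 0.406 lay lower, and Ppp1r3g was lowest at 0.390 ± 0.542 RPKM. Adjacent genes from Ugp2 down to Gbe1 differed by less than the larger of their SDs over the day, as did Phka2 and Gyg. The order was the same in knockouts, with 121 ± 35.2 RPKM for Ugp2 and 0.480 ± 0.894 RPKM for Ppp1r3g. The genes lie on 9 different chromosomes, none of them chromosome 14, which holds Thrb.

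To ask which members followed the day, a 24-h cosine curve was tested within each genotype by edgeR. The rhythm passed an adjusted p of 0.05 for 8 of 9 members in controls, against 33% of all tested genes, and for 8 of 9 in knockouts, against 28.9%. The exceptions were the phosphorylase Pygl in controls and the primer Gyg in knockouts, and 7 of 9 passed in both, against 21.5% of genes. The median fitted amplitude of the 9, on the variance-stabilised log2 scale, was 0.58 in controls and 0.50 in knockouts, beside 0.14 and 0.13 over all tested genes. The members did not share 1 phase. In controls fitted peaks ran from ZT4.0 for Gyg through Phka2 at ZT5.6, Ppp1r3g at ZT8.6, Ugp2 at ZT10.1, Gbe1 at ZT11.8 and Gys2 at ZT12.1 to Ppp1r3b at ZT18.8 and Ppp1r3c at ZT23.4.

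**Figure D1:**
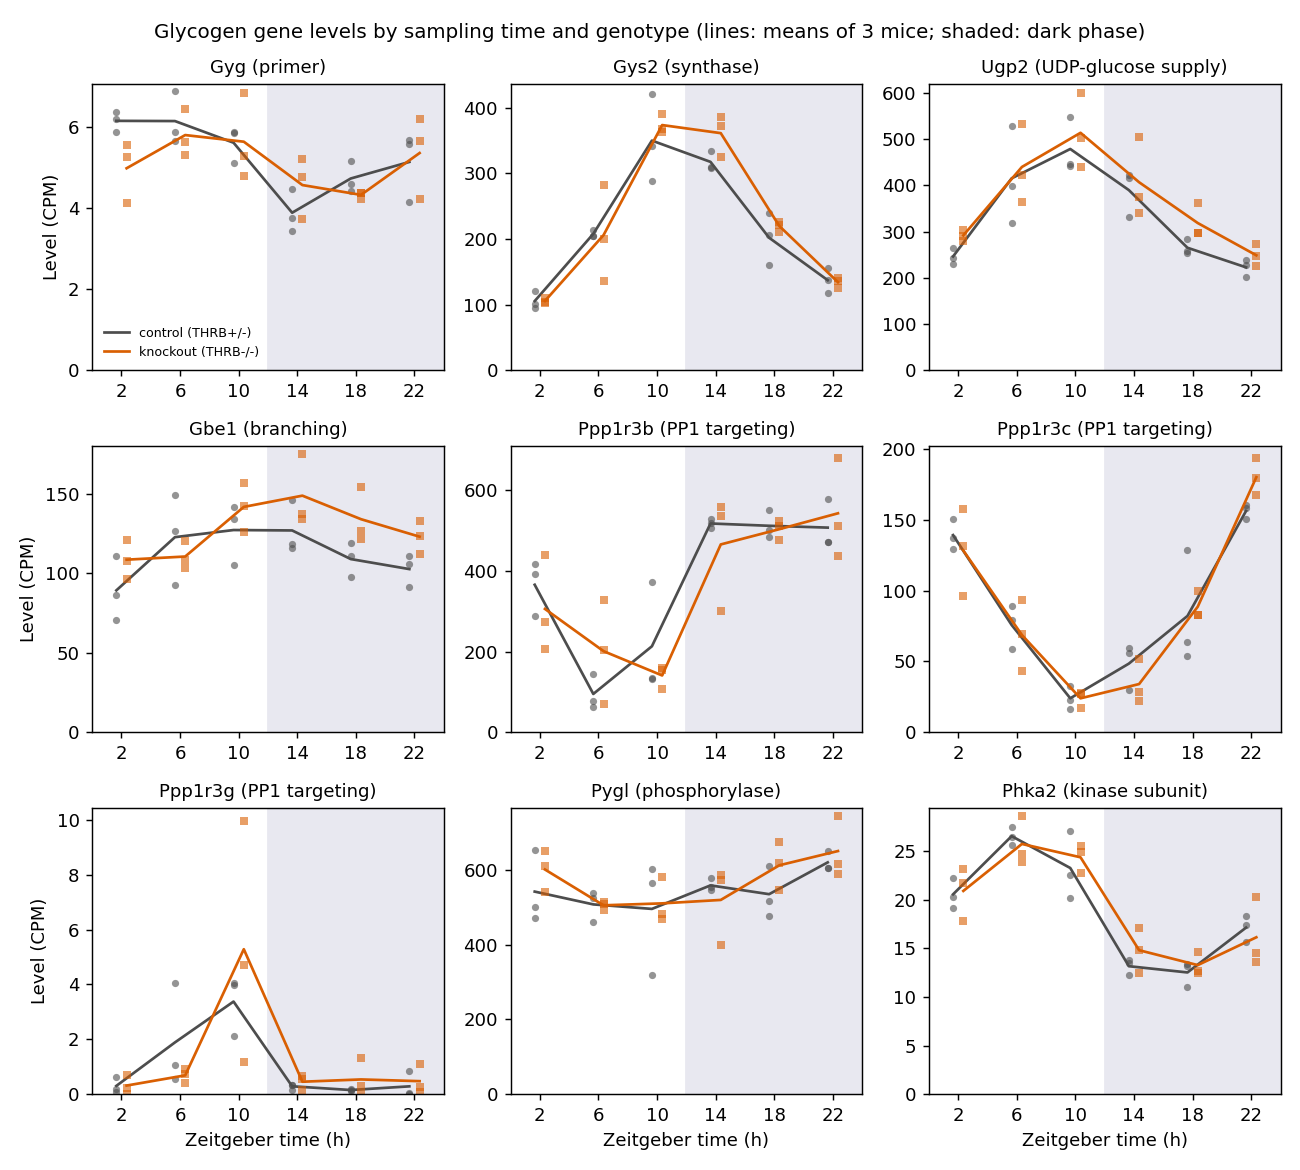
Level in CPM (vertical axes, from 0) against Zeitgeber time in hours for the 9 genes, with 1 point per mouse, grey circles for controls, orange squares for knockouts and lines through the means of 3 mice. Gys2 and Ugp2 are highest at ZT10 in both genotypes, Ppp1r3c is lowest there, with means of 23.96 and 23.95 CPM, and Pygl shows the flattest course.

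Gyg (ENSMUSG00000019528, GRCm38 chromosome 3 from 20122084 to 20155317, minus strand) encodes glycogenin, which primes new particles. In controls the 3 mice were at 6.39, 5.89 and 6.19 CPM at ZT2 and at 3.43, 3.76 and 4.48 CPM at ZT14. The groups did not overlap, and their means were 1.58-fold apart. The rhythm had an amplitude of 0.24 (SE 0.053) and an adjusted p of 0.00411 in controls. In knockouts the amplitude was 0.14 (SE 0.053) with an adjusted p of 0.200, but the difference of amplitudes, with a 95% interval of -0.26 to 0.05, was not past the threshold (adjusted p = 0.999983), so a difference between the genotypes in this rhythm was not shown. At 122 to 236 counts per library, Gyg was among the thinly counted members.

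Ugp2 (ENSMUSG00000001891, chromosome 11 from 21321138 to 21371201, minus strand) encodes UDP-glucose pyrophosphorylase, which supplies the glucose donor. Controls were at 442, 549 and 446 CPM at ZT10 and at 239, 201 and 228 CPM at ZT22. Knockouts were at 600.3, 502 and 439.6 CPM at ZT10 and at 248, 274 and 225 CPM at ZT22. All mice of ZT10 thus lay above all mice of ZT22 in either genotype, 2.15-fold on the means of controls and 2.07-fold on those of knockouts. The fitted peaks, ZT10.1 (SE 0.42 h) and ZT10.0 (SE 0.49 h), were 0.047 h apart, with a 95% interval from -1.37 to 1.27 h for knockout minus control.

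Gys2 (ENSMUSG00000030244, chromosome 6 from 142422613 to 142473109, minus strand) encodes the liver glycogen synthase. Control values were 101, 120.3 and 94.9 CPM at ZT2 and 288, 341 and 420.4 CPM at ZT10. In knockouts they were 102, 109.9 and 104 CPM at ZT2 and 367, 363 and 391 CPM at ZT10. The synthase was thus lowest early in the light phase and highest toward its end, with means 3.32-fold apart in controls and 3.54-fold apart in knockouts. The amplitude was 0.84 (SE 0.073) in controls and 0.94 (SE 0.073) in knockouts, with adjusted p of 1.76e-07 and 2.42e-07 for the rhythm. The peak lay at ZT12.1 (SE 0.33 h) and ZT12.4 (SE 0.30 h).

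Gbe1 (ENSMUSG00000022707, chromosome 16 from 70313949 to 70569716, plus strand) encodes the branching enzyme, and its daily swing was the shallowest among the synthesis enzymes that peak near dusk. Controls were at 70.7, 111 and 86.1 CPM at ZT2 and at 134, 142 and 105 CPM at ZT10, so the groups overlapped. Knockouts were at 96.6, 121 and 108 CPM at ZT2 and at 137, 175 and 134 CPM at ZT14, without overlap. The amplitude was 0.24 in controls and 0.23 in knockouts (SE 0.066 for both). The rhythm call in controls was marginal at an adjusted p of 0.0484, and leaving out 1 control library ended it for 13 of the 18 libraries, at up to 0.0990. The fitted peak was ZT11.8 (SE 1.07 h) in controls and ZT14.4 (SE 1.10 h) in knockouts, a difference of 2.55 h with an interval of -0.59 to 5.69 h that did not pass (adjusted p = 0.984).

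The 3 members that encode targeting subunits of protein phosphatase 1 split into opposite times of day. Other subunits of this family, such as Ppp1r3d, Ppp1r3e and Ppp1r3f, are not part of this comparison. Ppp1r3b and Ppp1r3c were lowest at ZT6 or ZT10, whereas the barely counted Ppp1r3g had its highest group mean at ZT10 in both genotypes.

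Ppp1r3b (ENSMUSG00000046794, chromosome 8 from 35375739 to 35388139, plus strand) encodes the main liver subunit, GL. Control mice were at 78.0, 61.6 and 145 CPM at ZT6 and at 529, 506 and 518 CPM at ZT14. The level in controls was 5.46-fold higher at ZT14, and the 3 dark-phase means of 507 to 517 CPM lay close together. Knockouts were at 155, 159.7 and 107 CPM at ZT10, their lowest time, and at 437, 512 and 679 CPM at ZT22, their highest. Mice of 1 group could differ widely in the light phase: at ZT6 knockouts read 71.1, 204 and 327 CPM, and at ZT10 controls read 372, 131 and 135 CPM. The high ZT10 control is mouse a, the library with the highest red blood cell sum, and the part of that in its value was not tested. Rhythm amplitudes were 1.19 (SE 0.20) and 1.02 (SE 0.20), with adjusted p of 0.00108 in controls and 0.00216 in knockouts. Without the high ZT10 control the rhythm in controls remained past the threshold, as it did without any other single library (adjusted p of 0.00021 to 0.00362).

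Ppp1r3c (ENSMUSG00000067279, chromosome 19 from 36731737 to 36736653, minus strand) encodes the targeting subunit also called PTG. It had the largest swing of the well counted members. Controls were at 32.9, 22.9 and 16.1 CPM at ZT10 and at 160.2, 150.5 and 158 CPM at ZT22. Knockouts were at 27.0, 27.9 and 16.9 CPM at ZT10 and at 167, 179.6 and 194 CPM at ZT22. The mean at ZT22 was 6.52-fold that at ZT10 in controls and 7.52-fold in knockouts, without overlap. Amplitudes were 1.24 and 1.42 (SE 0.14 for both), and fitted peaks ZT23.4 (SE 0.44 h) and ZT23.2 (SE 0.39 h). Over the 12 group means, log2 CPM of Ppp1r3c ran against that of the synthase Gys2 (Pearson r = -0.93) and of Ugp2 (r = -0.89), points that share mice, and these correlations are a description.

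The sequence before the Ppp1r3c start is shown because this gene swung most among the well counted members and its promoter held a match to the canonical clock element. Among RefSeq windows of 300 bases around annotated starts (250 before, 50 after, GRCm38.p6), 7 of the 9 members had an entry, all but Gys2 and Ppp1r3b. The E-box CACGTG, a palindrome that reads alike on both strands, was found in the windows of Ppp1r3c, beginning 104 bases before the RefSeq start, and of Gyg, beginning 8 bases after it, and in 7.15% of all 32851 windows. The minus-strand sequence at chr19:36736654-36736854 is printed 5′ to 3′, with the E-box in capitals, and ends where the gene as listed in the count table begins.
Ppp1r3c: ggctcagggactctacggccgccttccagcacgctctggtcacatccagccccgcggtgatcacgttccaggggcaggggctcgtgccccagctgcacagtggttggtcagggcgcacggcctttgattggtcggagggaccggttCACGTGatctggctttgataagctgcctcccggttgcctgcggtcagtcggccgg
The branching enzyme Gbe1, whose window held none of the searched motifs, is shown as well, from chr16:70313699-70313948 (plus strand).
Gbe1: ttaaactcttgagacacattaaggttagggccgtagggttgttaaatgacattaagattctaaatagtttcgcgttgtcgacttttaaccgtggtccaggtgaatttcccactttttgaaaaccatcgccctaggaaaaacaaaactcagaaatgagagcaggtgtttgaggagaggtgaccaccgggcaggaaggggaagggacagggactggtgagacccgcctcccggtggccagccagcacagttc
The other motifs searched on both strands were the D-box TTATGTAA or TTACGTAA (1.06% of windows), the nuclear receptor element AGGTCA (16.3%), the FOXO motif GTAAACA (3.65%) and the CRE TGACGTCA (1.79%), and no match overlapped another. Of the 7 members with a window, Pygl alone held one, an AGGTCA beginning 128 bases before its RefSeq start. That start, 70227683, lies inside the gene as listed here, which begins at 70231488 on the minus strand. The RefSeq start of Ppp1r3g, 35967906, likewise lies inside a gene listed from 35958839 on the plus strand. These 2 windows are thus not the sequence before the listed gene starts. Gyg, with an E-box, had an amplitude of 0.24 in controls, whereas Ugp2 (0.58) and Phka2 (0.51) held none of the motifs. A link of motif and swing was not tested. A match of letters is a description and not a binding site.

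Ppp1r3g (ENSMUSG00000050423, chromosome 13 from 35958839 to 35970388, plus strand) encodes a targeting subunit known to respond to fasting and feeding, and it was barely counted. The median library held 15.5 counts, 3 of 36 libraries held 0 and 5 held more than 100. A count of 0 allows up to 3 counts, or 0.0672 to 0.105 CPM in these libraries, counting error alone considered. At ZT10 controls read 3.98, 2.11 and 4.04 CPM and knockouts 4.72, 1.19 and 9.95 CPM. At ZT18 controls read 0.140, 0.190 and 0.132 CPM, resting on 4, 7 and 4 counts, and knockouts 0, 0.295 and 1.32 CPM. Controls of ZT10 thus lay above those of ZT18 without overlap, whereas among knockouts the highest ZT18 mouse exceeded the lowest ZT10 mouse. The edgeR cosine had a log2 amplitude of 2.28 in controls and 1.68 in knockouts, with adjusted p of 0.00055 and 0.0213. In knockouts the call rested on 1 mouse: without mouse c of ZT10 the adjusted p was 0.161.

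Pygl (ENSMUSG00000021069, chromosome 12 from 70190811 to 70231488, minus strand) encodes the liver phosphorylase, which releases glucose 1-phosphate from the chain. Controls ranged from 319 to 652 CPM over the day with a median of 549, and knockouts from 398 to 745 CPM with a median of 577. The highest group mean exceeded the lowest 1.25-fold in controls and 1.29-fold in knockouts. The amplitude was 0.13 (SE 0.069) in controls, not past the threshold (adjusted p = 0.376), and 0.20 (SE 0.069) in knockouts, past it (adjusted p = 0.0230), with an interval of -0.13 to 0.26 for the difference. The call in knockouts ended without mouse c of ZT10 (0.0525) or mouse c of ZT22 (0.0764). The 3 controls of ZT10 alone read 602, 566 and 319 CPM, most of the range seen over the day.

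Phka2 (ENSMUSG00000031295, chromosome X from 160502166 to 160598878, plus strand) encodes the liver alpha subunit of phosphorylase kinase, which activates the phosphorylase. Controls were at 25.7, 26.4 and 27.4 CPM at ZT6 and at 10.98, 13.2 and 13.4 CPM at ZT18. Knockouts were at 28.6, 24.7 and 23.8 CPM at ZT6 and at 12.5, 12.7 and 14.6 CPM at ZT18. Mid-light values were 2.12-fold higher in controls and 1.94-fold higher in knockouts, with no overlap. The amplitudes were 0.51 and 0.47 (SE 0.056 for both) and the peaks ZT5.6 (SE 0.43 h) and ZT6.3 (SE 0.46 h). Phka2 thus ran against Ppp1r3b over the 12 group means (r = -0.90) and with Gyg (r = 0.84).

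**Figure D2:**
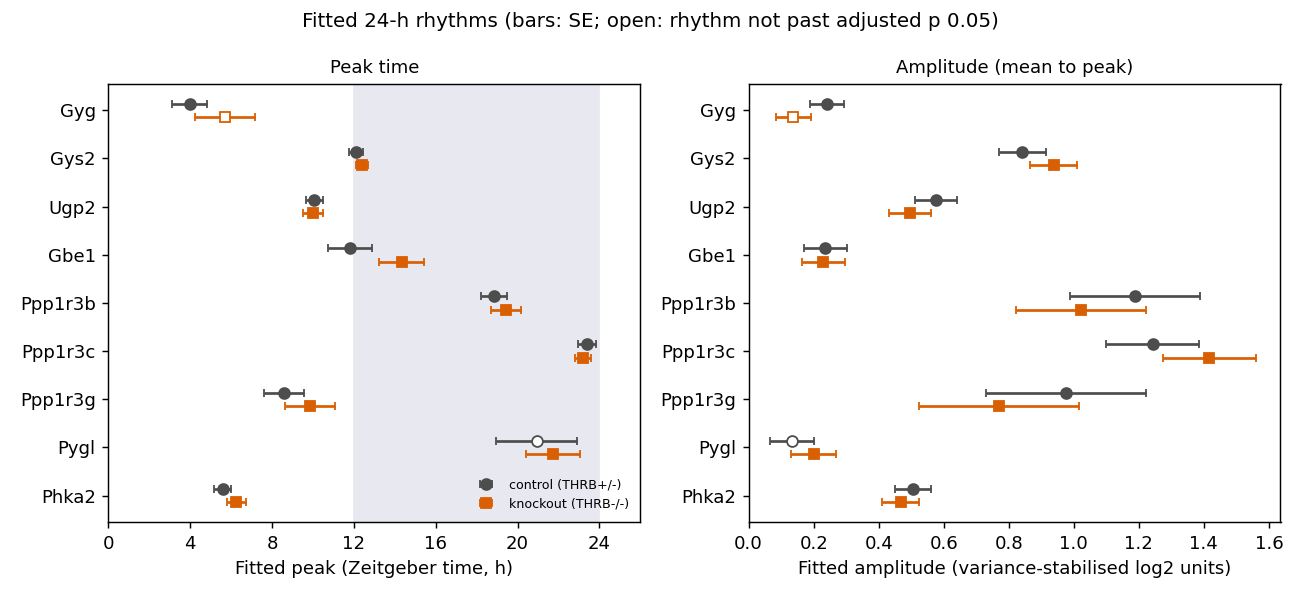
Fitted peak in hours of Zeitgeber time (left) and fitted amplitude in variance-stabilised log2 units (right) for each gene, grey circles for controls and orange squares for knockouts, with SE bars and open symbols where the rhythm was not past an adjusted p of 0.05. Peaks of the 2 genotypes lie within 1.0 h of each other for Gys2, Ugp2, Ppp1r3b, Ppp1r3c, Phka2 and Pygl, and the amplitude bars of the 2 genotypes overlap for each gene.

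Steps between neighbouring times, with both genotypes in 1 model and 6 mice per time, placed these changes in the day. From ZT2 to ZT6, 3 members rose (Gys2, Ugp2 and Phka2) and 2 fell (Ppp1r3b and Ppp1r3c), against 6.83% and 5.36% of all genes. Gys2 changed by 0.97 (log2, SE 0.11, adjusted p = 1.46e-07), whereas Ppp1r3b fell by 1.19 (SE 0.30, adjusted p = 0.00703). In controls alone Ppp1r3b fell by 1.94 (edgeR adjusted p = 0.00412), and in knockouts alone by 0.61, not called (0.510). The difference between genotypes in this step was not tested. Gys2 was called in either genotype alone, Ugp2 in controls alone only, and Phka2 and Ppp1r3c in neither. From ZT6 to ZT10, Gys2 rose further by 0.81 and Ppp1r3c fell by 1.59 (SE 0.22), beside 3.71% of genes rising and 4.26% falling. The passage into the dark, ZT10 to ZT14, had the most member calls, with Ppp1r3b and Ppp1r3c rising by 1.47 and 0.78 and Ppp1r3g, Ugp2, Phka2 and Gyg falling, and it was also the step with the most calls over all genes (9.96% rising, 9.52% falling). There Ppp1r3b and Phka2 were called in either genotype alone, Ppp1r3g and Gyg in controls alone only, and Ppp1r3c and Ugp2 in neither.

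During the dark phase Gys2 fell and Ppp1r3c rose at both steps. In controls alone none of these steps was called (adjusted p of 0.0793 to 0.423). In knockouts alone only the Ppp1r3c rise from ZT14 to ZT18 was (0.0432). The fall of Ugp2 from ZT14 to ZT18 and the rise of Phka2 from ZT18 to ZT22 were called in neither genotype alone. From ZT14 to ZT18 Gys2 fell by 0.69 (SE 0.11), Ugp2 fell by 0.45 (SE 0.11) and Ppp1r3c rose by 1.06 (SE 0.22), beside 3.42% of genes rising and 3.47% falling. The ZT18 control nearest to ZT22 by clock genes, mouse c, read 128 CPM for Ppp1r3c against 54.2 and 63.7 CPM for mice a and b. Without the mice of letter c this Ppp1r3c rise was 0.78 and not called (adjusted p = 0.0722). From ZT18 to ZT22 Gys2 fell by 0.63, and Ppp1r3c and Phka2 rose by 0.98 and 0.37, beside 1.05% of genes rising and 0.711% falling. Across lights on, ZT22 to ZT2, 0 members were called by edgeR and 3 had an unadjusted p under 0.05, beside 0.734% of genes rising and 0.906% falling. DESeq2 called 2 there, Gys2 (log2 change of -0.36 in the edgeR fit) and Phka2 (0.32). All 19 called member steps had the same direction in either genotype alone and without the mice of any 1 letter, and 9 of them remained called whichever letter was left out. These were the 2 rising and 2 falling Gys2 steps, Ppp1r3c from ZT6 to ZT10, Ugp2 from ZT2 to ZT6 and the ZT10 to ZT14 steps of Ppp1r3b, Ppp1r3g and Phka2.

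**Figure D3:**
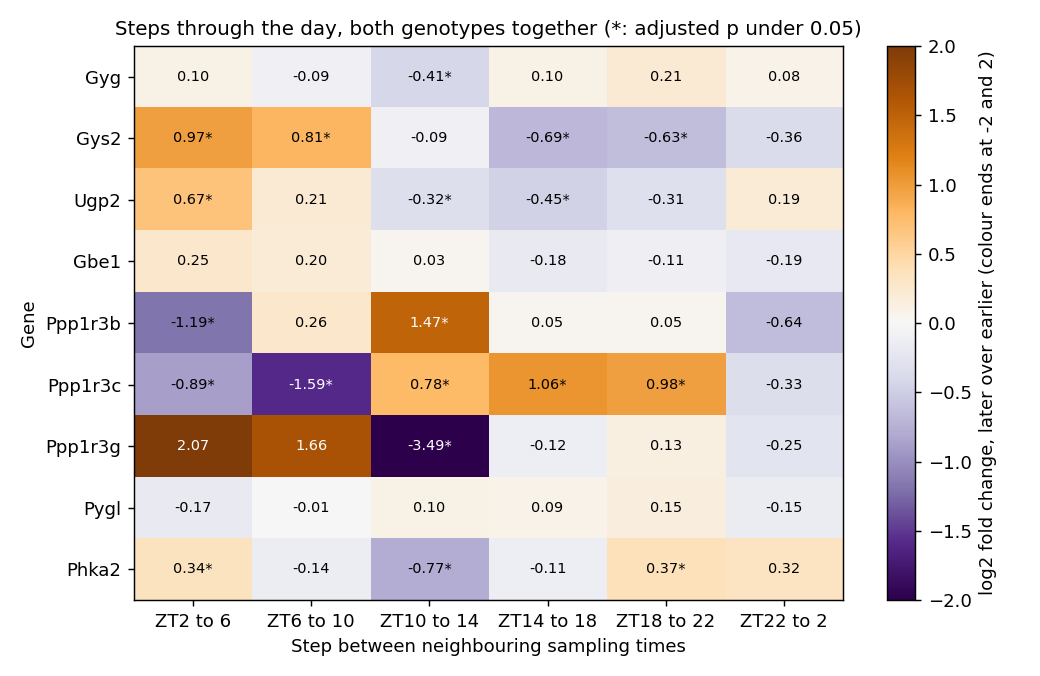
Log2 fold change of the later over the earlier of 2 neighbouring sampling times (columns) for each gene (rows), both genotypes in 1 model, coloured from purple (lower later) to brown (higher later), with an asterisk at an adjusted p under 0.05. The fall of 3.49 for Ppp1r3g from ZT10 to ZT14 goes beyond the colour range, and 6 of the 19 asterisks stand in that column.

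To ask whether loss of THRB changed these genes, knockouts were compared with controls over all times with sampling time in the model. No member was called by edgeR or DESeq2, while 0.95% of all genes were called by edgeR. By edgeR 2 of 9 members had an unadjusted p under 0.05, beside 2169 of 17994 genes. The median log2 fold change of the 9 was 0.06, beside -0.0011 over all genes. Both members nearest to a call serve synthesis and were higher in knockouts. Gbe1 ranged from 70.7 to 149 CPM with a median of 111 in controls and from 96.6 to 175 with a median of 125 in knockouts, a log2 fold change of 0.18 (SE 0.066, adjusted p = 0.226). Ugp2 ranged from 201 to 549 CPM with a median of 302 in controls and from 225 to 600.3 with a median of 351 in knockouts, a log2 fold change of 0.15 (SE 0.062, adjusted p = 0.291). The group ranges over the day overlapped widely for both. The mean of knockouts was above that of controls at 6 of 6 times for Ugp2, at 5 for Gbe1 and Ppp1r3g, at 4 for Gys2, Pygl and Phka2, at 3 for Gyg and at 2 for Ppp1r3b and Ppp1r3c, counts that follow from the same values as the fold changes.

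For the other members no estimate exceeded its standard error. Gys2 was at 0.06 (SE 0.063), Pygl at 0.06 (SE 0.065), Phka2 at 0.03 (SE 0.052), Gyg at -0.04 (SE 0.068) and Ppp1r3c at -0.08 (SE 0.13), all as log2 fold change of knockouts over controls with adjusted p of 0.775 to 0.884. Ppp1r3b at 0.02 (SE 0.17) and Ppp1r3g at 0.30 (SE 0.44) were less precisely measured. The fitted daily mean, or mesor, gave the bounds of what these data allow. Its 95% interval for knockout minus control was -0.09 to 0.21 for Gys2, -0.08 to 0.20 for Pygl and -0.09 to 0.14 for Phka2, on the variance-stabilised log2 scale. It was 0.05 to 0.32 for Gbe1 and 0.02 to 0.28 for Ugp2, both above 0 before adjustment and not called after it (adjusted p = 0.240 and 0.348). It was wide for Ppp1r3b, at -0.40 to 0.41, and for Ppp1r3g, at -0.44 to 0.57, so shifts within these ranges could not be told from 0. These intervals are not adjusted for the number of genes and are not detection limits of the adjusted test.

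**Figure D4:**
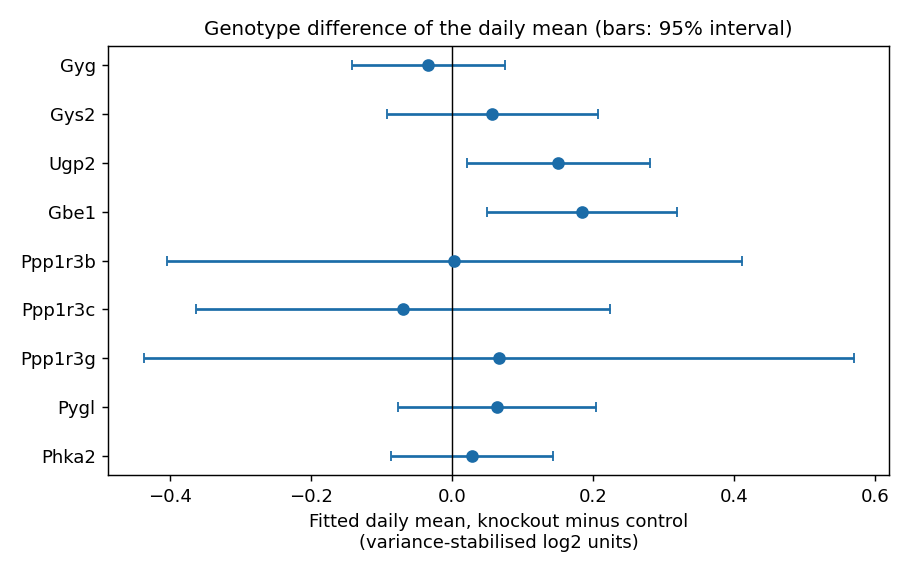
Difference of the fitted daily mean, knockout minus control, in variance-stabilised log2 units for each gene, with 95% intervals not adjusted for the number of genes. The intervals of Gbe1 (0.05 to 0.32) and Ugp2 (0.02 to 0.28) lie above 0, and those of the other 7 genes include it.

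Rhythm parameters were compared in the same way. No member was called for a difference in mesor, beside 0.645% of all genes. At an unadjusted p under 0.05 were 2 members, Gbe1 and Ugp2, beside 2011 genes. For amplitude no member was called either (0% of genes, with 322 at an unadjusted p under 0.05). Among the 7 rhythmic in both, none was called for phase (0% of 3872 genes, 176 unadjusted). No member, and 0% of genes, passed the edgeR test for an interaction of genotype and time, with 484 genes at an unadjusted p under 0.05 and, by DESeq2, 0 called and 609 unadjusted. The interval of the phase difference was narrowest for Gys2, at -0.60 to 1.22 h, and spanned -1.40 to 1.01 h for Ppp1r3c and -0.60 to 1.96 h for Phka2. Amplitude differences had intervals of -0.12 to 0.31 for Gys2 and -0.24 to 0.59 for Ppp1r3c.

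At single times 0 members were called by edgeR or DESeq2, beside edgeR calls for 0.0278% of genes at ZT2, 0.0111% at ZT6, 0.0167% at ZT10, 0.0167% at ZT14, 0.0222% at ZT18 and 0.0222% at ZT22. At an unadjusted p under 0.05 were 741 to 977 of 17994 genes at each time, and 1 of the 54 tests of a member at a time. This was Ppp1r3b at ZT6, where controls read 78.0, 61.6 and 145 CPM and knockouts 71.1, 204 and 327 CPM, a log2 fold change of 1.08 (SE 0.39, adjusted p = 0.960), and the groups overlapped. The 3 mice of each genotype did not overlap in 7 of 54 combinations of member and time (13%), close to the 9.96% over all genes and times. None of the 7 was called by edgeR (unadjusted p of 0.0686 to 0.520), so they are listed as values and not as genotype differences. For Ugp2 the knockout values lay above the control values at ZT2, with 304, 291 and 280.3 CPM against 244, 265 and 230.1 CPM. They also did at ZT18, with 297, 298 and 361 CPM against 285, 253 and 257 CPM. For Gbe1 they lay above at ZT18, with 121, 127 and 154 CPM against 97.3, 111 and 119 CPM, and at ZT22. For Ppp1r3c they lay above at ZT22. For Gyg the knockout values lay below at ZT2 and ZT18, with log2 fold changes of -0.31 and -0.13 (SE 0.16 for both).

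Mice of the same group also differed among themselves, and some members did so together. For each of the 36 pairs of members, the deviations of log2(CPM + 0.1) from the mean of each group of 3 were correlated over 36 mice, with 100000 permutations within groups (two-sided), and 4 pairs passed 0.05 after adjustment over the 36 pairs. Gbe1 and Pygl, a builder and a breaker of the chain, deviated together most closely (Pearson r = 0.67, permutation p = 5e-05, adjusted 0.0018; Spearman rho = 0.72, permutation p = 8e-05, adjusted 0.00288). Their r was 0.65 in controls, 0.72 in knockouts and 0.65 without the 2 mice farthest from the median of Gbe1. Ppp1r3b and Ppp1r3c followed (r = 0.66, permutation p = 0.00033, adjusted 0.00594; rho = 0.63, permutation p = 0.00053, adjusted 0.00636), with 0.45 in controls, 0.83 in knockouts and 0.58 without the 2 farthest mice. Ppp1r3c and Pygl gave r = 0.61 (permutation p = 0.0005, adjusted 0.006; rho = 0.61, permutation p = 0.00047, adjusted 0.00636), with 0.65 in controls, 0.56 in knockouts and 0.58 without the 2 farthest. Gbe1 and Ugp2 gave r = 0.63 (permutation p = 0.00138, adjusted 0.0124; rho = 0.55, permutation p = 0.00507, adjusted 0.0456), with 0.61 in controls, 0.71 in knockouts and 0.58 without the 2 farthest. Gys2 and Ppp1r3c, which ran oppositely over the day, gave r = -0.49 within groups (permutation p = 0.0437, adjusted 0.162; rho = -0.35, permutation p = 0.101, adjusted 0.259), which did not pass. The permutations took the mice as independent, but mice of the same letter in the 2 genotypes tended to deviate together, so these p-values may be too small. Levels of mice share library preparation and depth scaling, whose part in these values was not tested. Pairs of other genes were not put through this test. Whether 4 of 36 exceeds the share among other genes is therefore not known, and the pairs describe these members alone.

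The rest of the pathway was read through 5 lists of 55 genes, of which 52 were tested. No listed gene was called for genotype by edgeR, and rhythms were called for 30 in controls (against 33% of all genes) and 25 in knockouts (against 28.9%), with 21 in both. In each list the genes described were among the 3 with the largest amplitude in controls, of those rhythmic in both. Among other glycogen enzymes, 6 of 13 were rhythmic in both, beside 21.5% of all genes. The muscle-type synthase Gys1, at 3.23 CPM in controls, peaked at ZT16.6 in controls and ZT19.6 in knockouts, a difference not past the threshold (adjusted p = 0.938). The calmodulin gene Calm2, whose product is a subunit of phosphorylase kinase, peaked at ZT3.9 and ZT4.6.

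Of the 16 phosphatase and kinase regulators tested, 4 were rhythmic in both genotypes, a share near the 21.5% of all genes. Prkaca, the protein kinase A catalytic subunit, had an amplitude of 0.31 in controls with a peak at ZT22.5. Ppp1ca, a catalytic subunit of protein phosphatase 1, had 0.20 with a peak at ZT2.2, and the synthase kinase gene Gsk3a 0.16 with a peak at ZT7.7. The targeting subunits Ppp1r3b and Ppp1r3c, at 1.19 and 1.24, thus swung far more than Ppp1ca, a comparison of fitted values with no test. In the list of glycogen quality and lysosomal breakdown, 4 of 5 were rhythmic in both, beside 21.5% of all genes, led by Gabarapl1, an autophagy protein, with an amplitude of 0.83 and a peak at ZT6.5, followed by the laforin gene Epm2a (0.29, ZT5.6) and the malin gene Nhlrc1 (0.29, ZT19.9).

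Genes that set glucose 6-phosphate, the substrate shared with glycogen, were rhythmic in both genotypes for 4 of 9, beside 21.5% of all genes. The glucose 6-phosphate transporter Slc37a4 peaked at ZT13.0 and ZT13.4 and the glucose transporter Slc2a2 at ZT9.6 and ZT9.9, on either side of Gys2. Of 9 hormone receptor and insulin signal genes, 3 were rhythmic in both, which with so few genes is near the 21.5% of all genes. The adrenergic receptor Adra1b peaked at ZT23.1 in controls, near Ppp1r3c, the insulin receptor Insr at ZT7.7 and the kinase gene Pdpk1 at ZT8.3.

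Finally, the genes most like each member rhythmic in both genotypes were taken by Pearson r of log2 CPM over the 12 group means, among genes with a mean of at least 50 counts. For Gys2 these were Bnip3 and Ak4 (r = 0.99 for both), and for Ugp2 Mia3 and Tulp4 (0.99 for both). For Ppp1r3c they were St5 (0.98) and Ap2a2 (0.98), and for Ppp1r3b Nags (0.96). Phka2 was matched by Abcb8 (0.99) and Tbc1d17 (0.98), Gbe1 by Slc16a7 (0.97) and Ogdh (0.95) and Ppp1r3g by Fam76a and Zpr1 (0.98 for both). With so many genes searched, high values are reached easily, and they describe likeness of time course alone.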

How the data were processed

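Livers were sequenced as poly(A) RNA, without strand, in 36 libraries. The authors discarded reads with adapter or poly-N sequence and those of low quality, mapped pairs to GRCm38 (mm10) with HISAT2 and deposited unnormalized featureCounts counts per gene, without stating versions, annotation release or treatment of reads with several matches. Opposite-strand genes that overlap members held 0 to 778 counts in all, and 1 pseudogene (Gm47451) shared 387 bases at 94.8% identity with Pygl. Replicates of a group differed by more than counting noise (chi-square per gene 21.7 to 90.0). Whether cages or litters were shared is not given in the sources used here.

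Genes with at least 100 counts in sum were TMM-normalized and tested by edgeR 4.0.16 quasi-likelihood fits (R 4.3.3) with Benjamini-Hochberg adjustment over all tested genes, threshold 0.05. Time was a factor for genotype, steps and interaction, and cosine and sine terms of 24 h for rhythms. Mesor, amplitude and phase came from a joint cosinor on DESeq2 1.42.0 vst values, with delta-method errors and 30 degrees of freedom. Standard errors of edgeR were taken from the F statistic. P-values measure the spread between mice. Scripts were tested on simulated data.

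Members, lists and tests were chosen with earlier results of these data known. All 9 members were named. In each pathway list the 3 genes of largest control amplitude among those rhythmic in both genotypes were named, and up to 2 most alike genes for each such member; 3 genes that this rule names are not reported here. The pairwise correlations of members between mice were added after values were seen. Alternatives covered the tool (DESeq2), scaling, filter, model of time, pairing by letter and omission of mice.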

Additional observations from a re-analysis of the deposited data

How the results depend on the processing

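The numbers of members called (0 for genotype, 8 and 8 for rhythms, 19 steps, 0 for interaction, single times, mesor, amplitude and phase) stayed within 1.5 times under other filters, DESeq2 size factors and, where run, DESeq2 (21 steps). Exceptions were the steps in controls alone (9) or knockouts alone (6), where fewer mice entered, and mesor at an unadjusted p under 0.05 (2). Without the mice of 1 letter the calls were 6 to 7 for either rhythm and 13 to 15 steps. Without 1 library they were 7 to 8 in controls, 6 to 8 in knockouts and 0 for genotype. With time as a factor Gbe1 lost its rhythm call in both genotypes (adjusted p = 0.178 and 0.0536) and Pygl its call in knockouts (0.174). On vst values Gbe1 lost it in controls (0.0775) and Ppp1r3g in knockouts (0.127).

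The uncalled genotype log2 fold change crossed 0 for Ppp1r3b with times pooled (-0.0337) and with the replicate block (-0.00433). Without the mice of 1 letter it ranged from -0.133 to 0.155 for Ppp1r3b, -0.133 to 0.0144 for Ppp1r3c, -0.0404 to 0.583 for Ppp1r3g, -0.103 to 0.00127 for Gyg and -0.00376 to 0.0621 for Phka2, and without 1 library from -0.0843 to 0.133 for Ppp1r3b; the cause was not tested. The genotypes share letters, and same-letter mice deviated together (r above 0.1) in 16 of 18 pairs (median 0.22, lowest -0.073). What the letters stand for is not stated. The main tests took them as names and did not pair mice, so a pairing shared by the genotypes may be left out of them. With the replicate block, pairing mice by letter, the members called stayed at 0 for genotype, interaction, single times and mesor and at 8 for each rhythm, and steps were 20.

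Over all genes, genotype calls were 387 with the block, 315 by DESeq2, 65 with times pooled and 40 to 81 without a letter, against 171. Calls at single times were 54 by DESeq2, 43 without a filter, 36 with the block and 7 to 18 without a letter, against 21, and mesor calls 374 with the block and 31 to 45 without a letter, against 116. Without a letter, rhythms numbered 3109 to 4005 (against 5936) in controls and 2343 to 3192 (against 5201) in knockouts, steps 5131 to 5462 (against 8985) and phase calls 0 to 2. Steps numbered 2235 in controls and 1815 in knockouts alone. Low counts limit Ppp1r3g and Gyg most.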
